A study of Mus musculus with 2 samples.

Results

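The immune cells that came through a sort for basal oral keratinocytes are described here: cell barcodes with leukocyte transcripts among mouse buccal (cheek-lining) epithelial cells sorted for high surface CD104, the β4 integrin chain encoded by Itgb4. All cells came from C57BL/6 females aged 12 weeks, and the labels name no treatment, allele or transgene. The epithelium of 10 mice was pooled into 1 suspension, which was divided into 2 technical libraries on the 10x Chromium platform, called library 1 and library 2 below. There is therefore 1 independent sample, individual mice cannot be told apart, and no test between conditions or between cell classes could be made. The study's aim, per the series description, was to look for sub-populations within the basal layer.

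Barcodes with at least 500 detected genes and at most 10% of unique molecular identifiers (UMIs, 1 per captured transcript) from mitochondrial genes were kept. Of these, the barcodes with at least 3 Cd52 UMIs per 10000 were taken as immune. Cd52 encodes a small glycoprotein of the leukocyte surface. The rule found 63 of 15470 kept barcodes, 25 in library 1 (0.362%, exact binomial 95% interval 0.234 to 0.534%) and 38 in library 2 (0.444%, 0.314 to 0.609%). The intervals here and below cover counting error only. Immune barcodes with at least 100 Cd74 UMIs per 10000 form the Langerhans-like class, which held 34 cells, 8 in library 1 and 26 in library 2. Immune barcodes with less Cd74 and at least 2 Nkg7 or Cd7 UMIs per 10000 form the lymphoid class, which held 23 cells, 15 in library 1 and 8 in library 2. The Langerhans-like share of kept barcodes was 0.116% (0.0500 to 0.228%) in library 1 and 0.304% (0.198 to 0.445%) in library 2. The lymphoid share was 0.217% (0.122 to 0.358%) and 0.0934% (0.0403 to 0.184%). The 2 classes thus differed in opposite directions between the technical libraries. For each class the 2 intervals overlapped, which does not settle whether the shift was within counting error. The split of 8 and 15 cells against 26 and 8 cells was not tested. The remaining 6 barcodes met neither rule. The 15407 barcodes under the Cd52 threshold, 6882 and 8525 per library, are called keratinocytes.

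Langerhans cells are the resident antigen-presenting cells of stratified epithelia. They take up antigen between keratinocytes, display its peptides on MHC class II molecules and carry it to lymph nodes, and they are held in the epithelium by adhesion molecules that they share with it. Cd74, the invariant chain, escorts new class II molecules to the compartment where peptide is loaded. Epithelia also hold lymphocytes, among them T cells of several kinds, natural killer (NK) cells and innate lymphoid cells, which act through granule proteases and cytokines. Nkg7 encodes a membrane protein of cytotoxic granules, and Cd7 is a surface protein of T and NK cells.

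The 2 libraries held 67962712 and 73935792 UMIs in 7215 and 9076 barcodes, of which 6907 and 8563 were kept. The shallowest barcodes had 3362 and 3149 UMIs. The libraries shared 104 barcode sequences, and 1 immune barcode, a Langerhans-like cell of library 1, was among them. The Langerhans-like cells had a median of 9317 UMIs in library 1 and 8165.5 in library 2, the lymphoid cells 5340 and 4724.5, and the keratinocytes 7690 and 6708. The lymphoid cells were thus the shallowest class in both libraries. The summed counts of the immune classes are small, at 71053 and 243223 UMIs for the Langerhans-like class and 112142 and 53753 UMIs for the lymphoid class, against 66251066 and 71243584 UMIs for the keratinocytes.

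The values that chose the members are given as description. In the 34 Langerhans-like cells the lowest, median and highest levels of Cd52 were 7.45, 23.5 and 62.0 UMIs per 10000, and those of Cd74 were 125, 594 and 933. In the 23 lymphoid cells the same summary gave 3.14, 21.7 and 53.9 for Cd52 and 4.19, 39.8 and 96.9 for Nkg7. Cd7 was detected in 16 of 23 lymphoid cells and Cd74 in 3 of 23, so Nkg7 alone admitted the lymphoid cells without Cd7. Of the keratinocytes, 1.05% and 0.962% in libraries 1 and 2 held a Cd52 UMI and 4.05% and 5.70% held a Cd74 UMI. The members nearest to the Cd52 threshold had 3.14 UMIs per 10000 in library 1 and 3.12 in library 2, and the nearest barcodes outside it had 2.88 and 2.85. The Cd52 edge was therefore a continuum of a few UMIs. The Cd74 edge was wider, with 304 and 125 UMIs per 10000 in the lowest Langerhans-like cells against 60.6 and 27.0 in the highest immune cells below the threshold. For the larger of Nkg7 and Cd7 the lowest lymphoid cells had 4.19 and 9.75, and the highest immune cells outside both classes had 0 and 1.80.

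**Figure D1:**
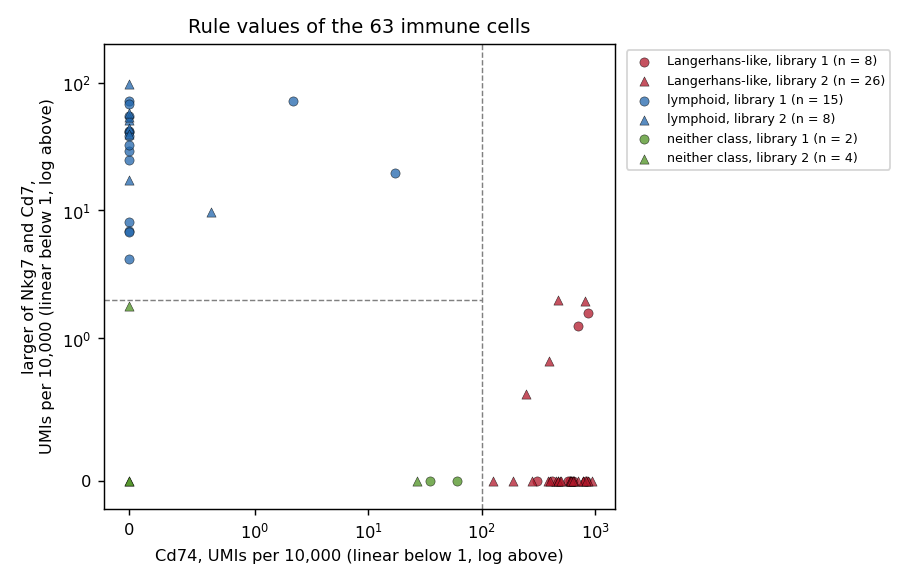
Cd74 (horizontal axis) and the larger of Nkg7 and Cd7 (vertical axis) in UMIs per 10000 in each of the 63 immune cells, linear below 1 and log above, with the class thresholds as dashed lines. The 34 Langerhans-like cells lie at Cd74 of 125 and above, the 23 lymphoid cells at Nkg7 or Cd7 of 4.19 and above, and the 6 others below both lines.

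For each class, UMIs were summed per library and expressed as UMIs per 1000000 of the class's own UMIs (CPM). A gene was counted as measured where at least 10 UMIs were seen or, from the other class's level, would have been seen in each library. A measured gene was called higher or lower where it differed at least 4-fold in the same direction in both libraries. These calls describe the summed cells of each class and carry no p-value. Every gene was read in the same cells that the rule selected, so no call is independent of the rule. A gene nearly absent from keratinocytes could be measured only through its level in the immune cells, so it had to come out higher. Both immune classes are set against the same keratinocytes.

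The Langerhans-like cells carried the transcripts of class II antigen presentation, of the Langerhans cell surface and of myeloid signalling at levels that keratinocytes hardly reached, and less of the keratinocyte differentiation genes. Of 1268 genes measured, 172 (13.6%) were higher and 62 (4.89%) were lower than in keratinocytes, with a median log2 ratio over all measured genes of -0.28.

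Transcripts of class II antigen presentation were found in every Langerhans-like cell. All 7 measured class II genes of a list of 10 were higher, with a median log2 ratio of 12.26: H2-Ab1, H2-Aa and H2-Eb1, which encode chains of the peptide-presenting molecules, H2-DMa, H2-DMb1 and H2-DMb2, whose products load the peptide, and H2-Oa, whose product restrains that loading. H2-Ab1 had 25530.2 and 19727 CPM in Langerhans-like cells of libraries 1 and 2, against 3.37 and 6.19 CPM in keratinocytes. Cell by cell its lowest, median and highest levels were 44.5, 229 and 412 UMIs per 10000, so every one of the 34 cells held it. H2-Aa had 30.1, 164 and 256 and H2-Eb1 27.3, 126 and 193 in the same summary. A UMI of H2-Ab1 was also found in 2.94% and 4.60% of keratinocytes. The remaining 3 listed genes were too low to be measured: Ciita, the transcriptional regulator of the class II genes, had 8 UMIs in the 34 cells, H2-Ob had 13 and H2-Eb2 had 0. H2-DMb1 and H2-DMb2 are near-identical copies whose reads the counting could have divided, so their separate levels are uncertain.

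The class II genes share a promoter module that ends, near the start site, in the Y box, an inverted CCAAT element. Its core letters TGATTGG are shown here in the promoters of the 5 measured genes that hold them. These genes were nearly absent from keratinocytes, so as measured genes they had to come out higher together. The windows are the 150 bases before the start site, 5′ to 3′ on the gene's strand, from RefSeq on GRCm38.p6, with the match in capitals. The H2-Ab1 promoter was not used here.
H2-Aa (chr17:34287824-34287973, minus strand): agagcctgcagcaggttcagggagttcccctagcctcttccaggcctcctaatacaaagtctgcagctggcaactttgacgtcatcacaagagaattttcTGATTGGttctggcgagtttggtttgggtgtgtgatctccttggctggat
H2-Eb1 (chr17:34305717-34305866, plus strand): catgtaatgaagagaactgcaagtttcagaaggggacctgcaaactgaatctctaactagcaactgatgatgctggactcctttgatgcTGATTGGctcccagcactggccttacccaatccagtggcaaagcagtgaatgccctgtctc
H2-DMb1 (chr17:34153041-34153190, plus strand): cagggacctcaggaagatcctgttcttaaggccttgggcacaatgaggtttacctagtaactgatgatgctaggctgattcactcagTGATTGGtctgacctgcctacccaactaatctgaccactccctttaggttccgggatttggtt
H2-DMb2 (chr17:34145099-34145248, plus strand): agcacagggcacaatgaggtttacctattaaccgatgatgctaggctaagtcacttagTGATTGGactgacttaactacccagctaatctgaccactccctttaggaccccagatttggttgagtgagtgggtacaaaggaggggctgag
H2-Oa (chr17:34092229-34092378, plus strand): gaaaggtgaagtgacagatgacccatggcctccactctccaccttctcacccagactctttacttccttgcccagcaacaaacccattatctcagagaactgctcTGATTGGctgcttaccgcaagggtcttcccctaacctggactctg
The first base of the match lies 50 bases before the start in H2-Aa, 61 in H2-Eb1, 63 in H2-DMb1, 92 in H2-DMb2 and 45 in H2-Oa, on the gene's own strand in each. H2-Ob, which was too low to be measured, holds it 59 bases before its start, and neither annotated start of H2-DMa has it in the window. In all, 6 of 7 class II genes with a promoter held the match, and these genes have 8 start sites. With both strands searched, 1877 of 32851 promoter windows of the same length (5.71%) hold these letters, counted per start site and not per gene. A match describes letters in a window and is neither a bound site nor a cause.

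MHC class I, which every nucleated cell can display, differed less. Of 8 measured genes of 12, B2m, Psmb8, Psmb9 and H2-D1 were higher in Langerhans-like cells and 4 were not called, with a median log2 ratio of 2.07. B2m, the light chain of class I, had 4644 and 4461 CPM in Langerhans-like cells and 653 and 688 CPM in keratinocytes, a log2 ratio of 2.83 and 2.70 in libraries 1 and 2. Psmb8 and Psmb9 encode subunits of the immunoproteasome.

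Cd207 encodes langerin, the lectin that forms the Birbeck granules of Langerhans cells (chromosome 6, 83671215 to 83677857, GRCm38). It had 1182 and 1106 CPM in Langerhans-like cells, against 0.0604 and 0.197 CPM in keratinocytes, and the log2 ratios were 14.26 and 12.46. It was found in 27 of 34 Langerhans-like cells, with lowest, median and highest levels of 0, 9.62 and 35.5 UMIs per 10000, and in 0.0581% and 0.164% of keratinocytes. Langerin transcripts were thus common in the class but not universal: 22 of the 34 cells held at least 5 UMIs. Epcam, the adhesion molecule that Langerhans cells share with epithelium, was found in 32 of 34 cells and had 971 and 757 CPM in Langerhans-like cells, against 98.7 and 97.7 CPM in keratinocytes.

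In the Langerhans cell list, 8 of 10 measured genes of 16 were higher, and Cd24a and Id2 were not called. The 8 were Spi1, which encodes the myeloid transcription factor PU.1, Runx3, a transcription factor that Langerhans cells need, Csf1r, the receptor for the survival factors CSF1 and IL-34, Itgax, the integrin chain CD11c, Ltc4s, the leukotriene C4 synthase, Mfge8, a secreted bridge to dying cells, and Cd207 and Epcam. Csf1r had 31 and 62 UMIs in the 2 libraries and Spi1 36 and 98 UMIs, which is few reads for a class of this size. Irf8, a factor of several myeloid lineages, had 6 and 38 UMIs and was not measured. Mfge8 spread widely, at 0, 1.93 and 240.3 UMIs per 10000, with 23 of 34 cells holding any.

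**Figure D2:**
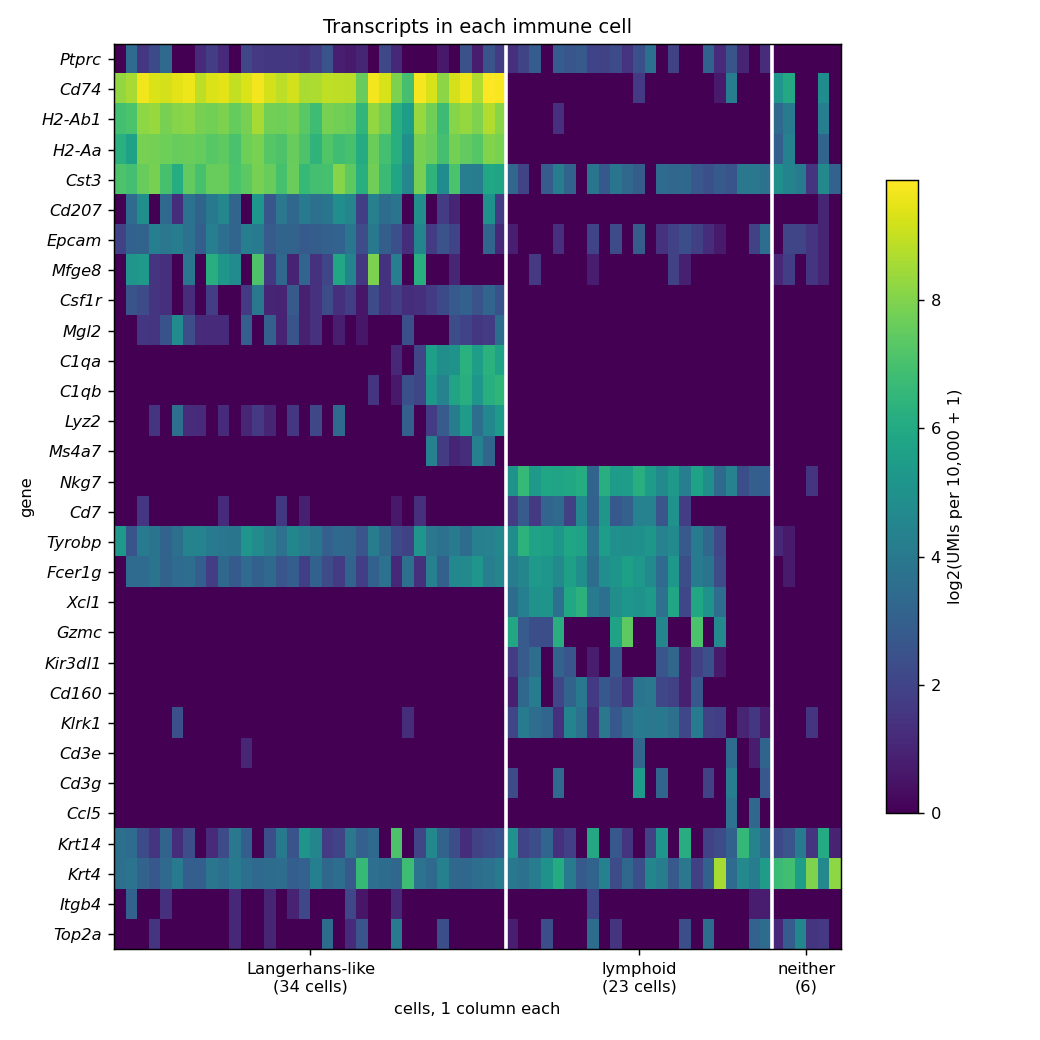
UMIs per 10000 in each of the 63 immune cells (1 column per cell, grouped by class and ordered by C1q or Tyrobp within it) for marker genes (vertical axis), coloured by log2(UMIs per 10000 + 1). Class II genes fill the 34 Langerhans-like columns, C1qa and C1qb a block of 7 of them, Nkg7 the 23 lymphoid columns and Xcl1 19 of those, and Krt4 is found in nearly every column.

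Myeloid signalling genes were higher in 9 of 11 measured of 14 listed. Cst3, the protease inhibitor cystatin C, had 15819 and 11479 CPM in Langerhans-like cells and 1176 and 1193 CPM in keratinocytes. Ctss, which encodes cathepsin S, the protease that trims the invariant chain, had 2196 and 1501 CPM in Langerhans-like cells, against 0.106 and 0.267 CPM in keratinocytes. Tyrobp, the adaptor DAP12 of activating receptors, was found in 34 of 34 Langerhans-like cells and in 0.567% and 0.739% of keratinocytes. The Fc receptor genes Fcgr3 and Fcgr2b and the signalling chain Fcer1g were higher too. Fcgr3 led all genes with Cd72, an inhibitory co-receptor, at log2 ratios of 13.32 and 13.24 for Fcgr3 and 13.16 and 13.43 for Cd72, yet both rest on at most 5 keratinocyte UMIs per library. Among the 12 genes with the largest upward ratios the others were Ccl4, C1qa, Hcls1, Cd207, Ctss, Napsa, Fcgr2b, C1qc, Mgl2 and C1qb. The Ccl4 level rested on 5 of the 34 cells, 1 of which held 22 of its 62 UMIs.

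Of leukocyte genes in general, 9 of 10 measured of 15 listed were higher. Ptprc, the pan-leukocyte phosphatase CD45, had 155 and 193 CPM in Langerhans-like cells, against 0.0604 and 0.182 CPM in keratinocytes, and was found in 25 of 34 cells of the class. Ucp2, a mitochondrial carrier, was the measured gene not called. Nkg7, Xcl1 and Gzmc had 0 UMIs in the 34 cells. A count of 0 allows up to 42.2 CPM in library 1 and 12.3 CPM in library 2. The NK and innate lymphoid list as a whole was not at 0, with 17 and 84 UMIs, or 239 and 345 CPM, in Langerhans-like cells and 2.99 and 2.33 CPM in keratinocytes, though none of its 18 genes met the minimum of 10 UMIs in both libraries. Those UMIs were mostly of Klrb1b, a lectin-receptor gene (41 UMIs in 19 of 34 cells), Il7r, the IL-7 receptor chain (30 in 16 of 34), and Klrd1 (26 in 14 of 34), and 14 of the 18 genes were at 0.

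Lists of other dendritic cells, of macrophages and of other cell types were read in the same cells. None of the 9 genes of type 1 conventional dendritic cells was measured, with 5 UMIs of the chemokine receptor Xcr1 and 0 of Clec9a. One cell of library 2, picked after its values were seen, held 4 of the 5 Xcr1 UMIs and 17 Irf8 UMIs. The same cell held 36 Cd207 and 78 Mfge8 UMIs. For type 2 conventional dendritic cells, the lectin genes Cd209a and Mgl2 were both measured and higher, at 464 and 193 CPM and 309.6 and 222 CPM in Langerhans-like cells. For maturation and migration, Cd86, a co-stimulatory ligand, was higher, whereas Ccr7, the receptor that leads dendritic cells to lymph nodes, and Il12b had 0 UMIs. Macrophage genes were higher in 6 of 7 measured of 14 listed, namely C1qa, C1qb, C1qc, Lyz2, Cd68 and Ms4a7, and Apoe was not called. The monocyte gene Ly6c2 and the macrophage scavenger receptor gene Cd163 had 0 UMIs. Markers of T cells summed to 4 and 23 UMIs, with Cd3d and Cd3g at 0. B cell, endothelial, melanocyte and erythroid lists had 0 UMIs, and the neutrophil, mast cell and fibroblast lists held 5, 1 and 1 UMIs.

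**Figure D3:**
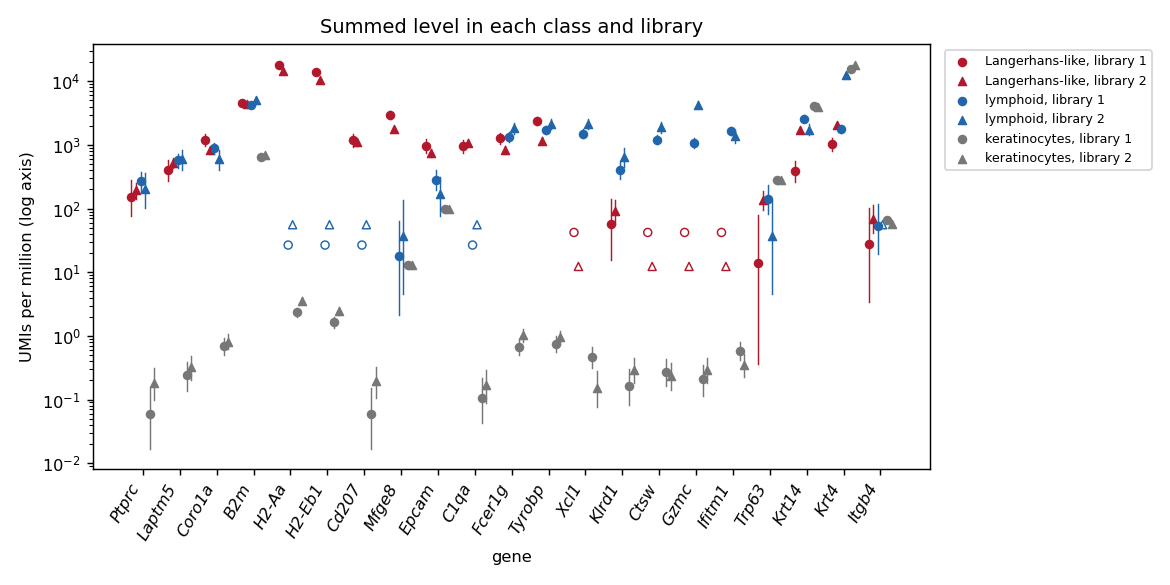
Summed level in CPM on a log axis for genes named along the horizontal axis, with 1 filled point per class and library, exact Poisson 95% intervals as bars, and open points for the limit that a count of 0 allows. In keratinocytes the immune genes lie under 10 CPM, save B2m, Mfge8 and Epcam, whereas Trp63, Krt14 and Krt4 are highest there and the Itgb4 intervals of the classes overlap.

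The macrophage genes were unevenly held. A division at 10 summed C1qa, C1qb and C1qc UMIs, chosen after the values were seen, set apart 7 Langerhans-like cells, 1 in library 1 and 6 in library 2, with 47 to 172 UMIs each. The other 27 cells held at most 5, and 22 of the 34 held 0. C1qa, C1qb and C1qc encode the chains of complement C1q. Among 687 genes measured, 13 (1.89%) were higher and 5 (0.728%) lower in the C1q-holding cells than in the other Langerhans-like cells, with 1 cell standing for library 1. Beside the C1q genes that define the division, the higher genes were Ms4a7, Tgfbi, Clec4a3, Lyz2, Lgmn, Cd68, Cd63, Cyba, AF251705 and Ctsc. The lower genes were Mfge8, Id2, Qpct, Gm42418 and H2-DMb2.

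Ms4a7, a membrane protein gene of macrophages, was found in 6 of the 7 C1q-holding cells, with 49 UMIs, and in 0 of the other 27. Lyz2, lysozyme, was found in 7 of 7 C1q-holding cells and in 12 of the other 27. Mfge8 went the other way, with 1 UMI in 1 of the 7 cells against 635 UMIs in 22 of the 27. Epcam was found in 5 of 7 and in 27 of 27, and Cd207 in 4 of 7, one with 28 UMIs, and in 23 of 27. Median Cst3 was 53.3 UMIs per 10000 in the C1q-holding cells and 139 in the others. H2-Ab1 did not divide this way, with a median of 272 UMIs per 10000 in the C1q-holding cells and 219 in the others. Median Cd74, a gene that the rule used, was 614 and 581 in the same order. The class II gene H2-DMb2 was called lower, at 206 and 109 CPM in the C1q-holding cells of libraries 1 and 2. In the other cells it had 1027 and 802 CPM. The C1q-holding cells therefore met the Cd74 rule while most of them lacked part of the Langerhans list, and the name Langerhans-like holds poorly for them. The other 27 cells were not uniform either. Cd209a had 0 UMIs in every C1q-holding cell. Among the others, 1 cell of library 1 held 12 Cd209a UMIs and 1 of library 2 held 8. Both had C1q and Cd207 at 0 and Mfge8 at 0 and 1 UMI, though they held 16 and 10 Epcam UMIs. Cd209a was not confined to cells without Cd207. Another cell of library 1 held 9 Cd209a UMIs with 18 of Cd207 and 29 of Mfge8. Another cell of library 2 held 7 Cd209a UMIs with 6 of Cd207. All these cells were picked after their values were seen.

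**Figure D4:**
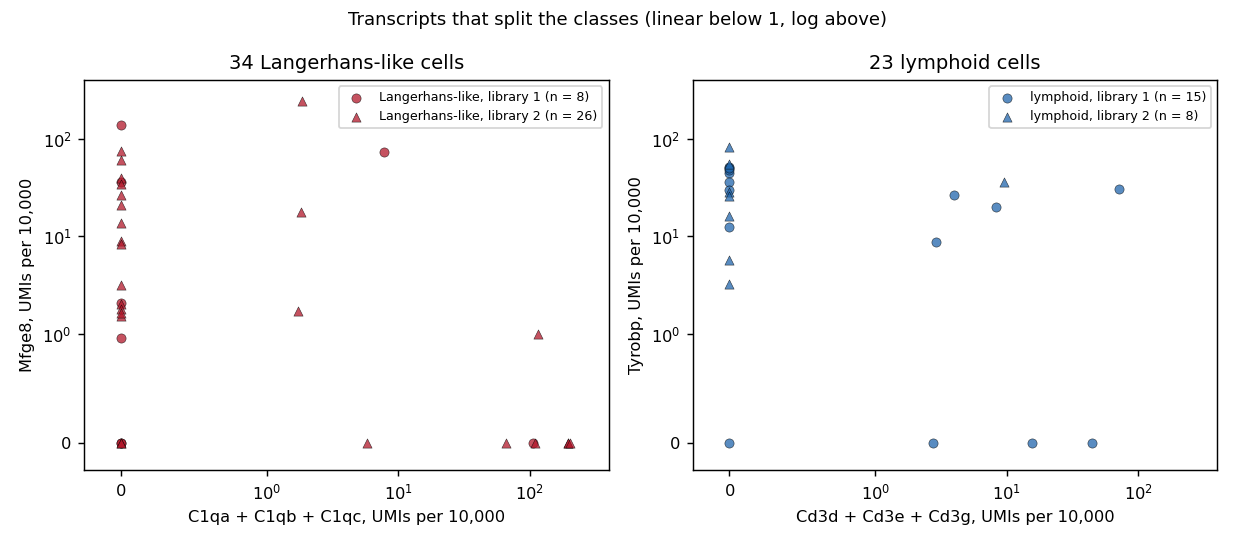
Left, Mfge8 against summed C1qa, C1qb and C1qc in the 34 Langerhans-like cells, and right, Tyrobp against summed Cd3d, Cd3e and Cd3g in the 23 lymphoid cells, all in UMIs per 10000, linear below 1 and log above, with 1 point per cell and a shape per library. The 7 C1q-holding cells at the right edge have Mfge8 at 0 or near 1, and the 4 lymphoid cells with Tyrobp at 0 are all of library 1.

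A few other genes, chosen after their values were seen, came from very few cells. Ccl17, a chemokine gene of dendritic cells, had 334 UMIs in 4 Langerhans-like cells, 323 of them in 2 cells of library 2. Chil4, a chitinase-like gene of the surrounding epithelium, had 545 UMIs in the class, and 1 cell held 459 of them. Summed levels of these genes say little about a typical cell.

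Genes lower in the Langerhans-like cells included those of epithelial differentiation. The 8 with the largest downward ratios were Tgm3, Serpinb12, Paqr5, Serpinb3a, Krt4, Dynap, Mt4 and Rdh12. Tgm3, a transglutaminase that cross-links the upper epithelial layers, had 28.1 and 45.2 CPM in Langerhans-like cells and 451 and 480.3 CPM in keratinocytes. Krt4, the keratin of the suprabasal oral lining, had 1027 and 2080.4 CPM in Langerhans-like cells and 15862 and 18306 CPM in keratinocytes, with log2 ratios of -3.95 and -3.14. Of differentiating keratinocyte genes, 5 of 6 measured of 12 listed were lower (Krt4, Krt13, Krt6a, Krtdap and Sbsn), with a median log2 ratio of -3.13. Of basal keratinocyte genes, 3 of 10 measured of 12 were lower (Sfn, Perp and Krt17) and 7 were not called, Krt5 and Krt14 among them, with a median of -2.56. Of 7 measured epithelial adhesion genes of 11 listed, Epcam was higher, and Pkp1 and Dsp, which encode desmosome proteins, were lower.

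The lymphoid cells carried NK-type receptor, granule and adaptor transcripts that keratinocytes nearly lacked, and little of the epithelial programme was called lower. Of 969 genes measured, 85 (8.77%) were higher and 6 (0.619%) were lower than in keratinocytes, with a median log2 ratio of -0.10. These values rest on 15 cells in library 1 and 8 in library 2.

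Xcl1 and granule genes were among those with the largest ratios. Xcl1, the chemokine that attracts XCR1-bearing dendritic cells (chromosome 1, 164931644 to 164935527, GRCm38), had 1507 and 2158 CPM in lymphoid cells, against 0.468 and 0.154 CPM in keratinocytes, with log2 ratios of 11.65 and 13.77. It was found in 19 of 23 lymphoid cells and in 0.349% and 0.117% of keratinocytes. Gzmc, a granule serine protease (chromosome 14, 56231441 to 56234656, GRCm38), had 1070.1 and 4316 CPM in lymphoid cells, against 0.211 and 0.295 CPM in keratinocytes. The summed Gzmc level rested on few cells: 7 of 23 held 346 of its 352 UMIs, and 13 held 0. Of the granule list, Srgn, the granule proteoglycan serglycin, Gzmc and Ctsw, cathepsin W, were the 3 measured genes of 14 and all were higher. Prf1, which encodes perforin, and the granzyme genes Gzma and Gzmk had 0 UMIs, and Gzmb had 8. A count of 0 allows up to 26.8 CPM in library 1 and 55.8 CPM in library 2, so perforin transcripts were not detectable at this depth.

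Receptors of the NK and innate lymphoid list followed, with 4 of 4 measured genes of 18 higher, namely Xcl1 and the lectin-receptor genes Klrd1, Klrk1 and Klrc1. Klrd1 (CD94) had 401 and 651 CPM in lymphoid cells and 0.166 and 0.295 CPM in keratinocytes. Ncr1, the NK receptor NKp46, had 19 UMIs in 11 cells, Klrb1c, which encodes NK1.1, had 11, and Eomes and Tbx21, transcription factors of NK cells, had 3 and 1. Il13, Areg and Il1rl1, genes of type 2 innate lymphoid cells, had 0 UMIs. Kir3dl1 and Kir3dl2, killer-cell immunoglobulin-like receptor genes, were found in 16 of 23 cells between them. The 2 genes are close copies with overlapping coordinates on chromosome X, so the division of UMIs between them is uncertain. Cd160, a receptor of cytotoxic lymphocytes, was found in 16 of 23 cells and had 303 and 242 CPM in lymphoid cells, against 0.0906 and 0.0561 CPM in keratinocytes.

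Apart from Nkg7, which chose the cells, the 12 genes with the largest upward ratios were Kir3dl2, Gzmc, Avil, Ctsw, Cd69, Kir3dl1, Cd160, Slamf7, Xcl1, Ms4a4b, Selplg and Rac2. Cd69, a surface marker of activation and of tissue residence, had 107 and 409 CPM in lymphoid cells and 0.0302 and 0.0421 CPM in keratinocytes, and 1 cell held 15 of its 22 UMIs in library 2. Avil, which encodes the actin-binding protein advillin, had 214 and 446 CPM in lymphoid cells and 0.0302 and 0.0983 CPM in keratinocytes. Kir3dl1 had 0 UMIs in library 1 keratinocytes, so its ratio there is a lower bound. Ctla2a, which encodes a cathepsin inhibitor-like protein, was found in 23 of 23 cells and has a close copy, Ctla2b. In the T cell list, Cd2, Lck and Thy1, surface and signalling genes that NK cells may also use, were the 3 measured of 15 in the files and all were higher. Tissue residence genes Cd69 and Cd244 were the 2 measured of 16, both higher. Ccr2, a receptor of recruited cells, Itgb7, the β7 integrin chain that pairs with the E-cadherin-binding chain CD103, and Ifitm1, an interferon-inducible membrane protein gene, were higher as well. Ifitm1 had 1641 and 1377 CPM in lymphoid cells and 0.589 and 0.351 CPM in keratinocytes.

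Class II genes were nearly absent from the lymphoid cells, with 4 UMIs over the list, and Cd207 had 0. The adaptors Tyrobp and Fcer1g, which NK receptors use as well as myeloid ones, were the 2 of 4 measured myeloid signalling genes that were higher. Tyrobp was found in 19 of 23 lymphoid cells. Class I genes were higher in 3 of 5 measured, namely B2m, Psmb8 and H2-D1. Helper, killer and regulatory T cell genes were not measured: Cd4 had 4 UMIs in 1 cell, Cd8b1 6 in 1 cell, and Foxp3 and Il17a 0. T cell receptor constant region genes were not analysed here. B cell, fibroblast, endothelial and melanocyte lists had 0 UMIs, and the erythroid list had 7, of which Hba-a1 gave 6 in 1 cell.

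The lymphoid class was itself mixed. The 19 cells with a Tyrobp UMI all held Xcl1 and Fcer1g. The other 4 cells, all in library 1, held no Tyrobp, Xcl1 or Fcer1g UMI. This division was chosen after the values were seen. Of the 4, 3 held Cd3d, Cd3e or Cd3g, which encode chains of the T cell receptor complex, with 18, 4 and 23 UMIs, against 5 of the 19. Cd160 was found in 0 of the 4 and in 16 of the 19. Cxcr6, a chemokine receptor of resident T cells, was found in 4 of the 4 and in 1 of the 19, and Ccl5, a chemokine of effector T cells, had 18 UMIs in 2 of the 4 and 0 in the 19. Median Nkg7 was 6.82 UMIs per 10000 in the 4 and 41.7 in the 19. The classes did not divide cleanly, because 1 cell with Tyrobp and Xcl1 held 33 Cd3 UMIs. In all, 7 of the 23 cells had at least 3 Cd3 UMIs.

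Library 1 held all 4 cells without Tyrobp, so the summed lymphoid levels of library 1 include them and those of library 2 do not. The 4 cells also had more keratin, with a median Krt5, Krt14 and Krt15 share of 0.597% of UMIs, against 0.0556% in the 19. The part of the keratin in these values was not tested.

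The 6 genes lower in lymphoid cells than in keratinocytes were Chil4, Serpinb3a, H19, 2610528A11Rik, Sbsn and Fgfbp1. Chil4 had 383 and 279 CPM in lymphoid cells, against 4929 and 5415 CPM in keratinocytes, with log2 ratios of -3.68 and -4.28. None of 7 measured basal keratinocyte genes was called lower, with a median log2 ratio of -1.01, and of 6 measured differentiating genes, with a median of -1.79, Sbsn alone was. Both medians were nearer to 0 than those of the Langerhans-like cells, with fewer basal genes measured. Leaving out the cells rich in keratin, a choice that bears on the keratins themselves, gave 14 lower genes, among them Krt5, Krt14 and Krt15, which made that choice, and again Chil4, Serpinb3a, 2610528A11Rik and Sbsn. That left 8 lymphoid cells in library 1 and 7 in library 2. The choice used Krt5, Krt14 and Krt15 only, so it kept a library 2 cell with 592 Krt4 and 296 Krt13 UMIs. In the cells kept, Krt4 had 1050 and 15635 CPM and Krt13 884 and 9184 CPM in libraries 1 and 2. Neither was called against keratinocytes.

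Set against each other, the 2 immune classes differed at 6 of 7 measured class II genes, which were higher in Langerhans-like cells, and at 3 of 4 measured NK and innate lymphoid genes, which were lower. Of 4 measured granule genes, Gzmc and Ctsw were lower, and Srgn and Ccl4 were not called. Of 1847 genes measured, 57 (3.09%) were higher and 37 (2%) lower in Langerhans-like than in lymphoid cells, with a median log2 ratio of -0.31. Scaling by the median of gene ratios in place of CPM gave 79 higher and 29 lower. That scaling raised the log2 ratios of Langerhans-like over lymphoid cells by 0.09 in library 1 and 0.44 in library 2. H2-Ab1 had 25530.2 and 19727 CPM in Langerhans-like cells and 0 and 18.6 CPM in lymphoid cells. H2-Aa had 1291 and 3477 UMIs in Langerhans-like cells and 0 in lymphoid cells of both libraries, so only a lower bound of its ratio can be given. H2-Eb1, H2-DMb1, Mfge8, Ctss, H2-DMa and C1qb were the others of the 8 largest upward ratios. The 8 largest downward ratios were those of Ifitm1, Thy1, Xcl1, Ctsw, Ctla2a, Gzmc, Sept1 and Rac2. Ifitm1, Xcl1, Ctsw, Ctla2a and Gzmc had 0 UMIs in Langerhans-like cells, so their ratios are bounds, as are those of H2-Eb1 and C1qb, with 0 UMIs in lymphoid cells, and that of H2-DMa in library 2.

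General leukocyte genes were found in both classes. Of 13 measured pan-leukocyte genes, 12 were not called between the classes, and Rac2, a GTPase of blood cells, was lower in Langerhans-like cells. All 8 measured class I genes were within 4-fold in both libraries, with a median log2 ratio of 0.10. B2m had 4644 and 4461 CPM in Langerhans-like cells and 4200 and 5042 CPM in lymphoid cells. Ptprc was found in 25 of 34 Langerhans-like and 18 of 23 lymphoid cells.

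Keratinocyte transcripts were present in the immune cells, and they were unevenly spread. The share of UMIs from the basal keratin genes Krt5, Krt14 and Krt15 had medians of 0.0622% and 0.0803% in Langerhans-like cells of libraries 1 and 2, 0.131% and 0.0581% in lymphoid cells, and 0.798% and 0.752% in keratinocytes. Over all immune cells the pooled share was 0.332%. A share above 0.25 of the keratinocyte median was found in 1 and 8 Langerhans-like cells and in 7 and 1 lymphoid cells. One Langerhans-like cell of library 2 with 16330 UMIs had 1.97%, held 225 of the class's 446 Krt14 UMIs and was also the highest in the proliferation gene Top2a. Among lymphoid cells with over 9000 UMIs, 6 of 7 had a share above 0.5%, against 1 of 16 cells with fewer UMIs. Deep lymphoid barcodes were thus mostly keratin-rich.

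As a percent of the keratinocyte level in libraries 1 and 2, Krt5 stood at 9.04% (exact Poisson 95% interval 4.81 to 15.5%) and 32.4% (27.3 to 38.2%) in Langerhans-like cells. In lymphoid cells it stood at 123% (exact Poisson 95% interval 109 to 138%) and 34.1% (23.5 to 47.9%), and 7 of the 23 cells, those with a share above 0.5%, held 292 of the 311 UMIs. Without the keratin-bearing cells Krt5 had 193 and 95.9 CPM in lymphoid cells, against 2023 and 1802 CPM in keratinocytes. The 2 libraries differed beyond counting error in both classes, and in lymphoid cells most of the UMIs came from a few cells. Krt14 stood at 9.52% and 43.7% in Langerhans-like cells and 62.9% and 44.5% in lymphoid cells. Krt4 stood at 6.48% and 11.4% in Langerhans-like cells and 11.4% and 68.0% in lymphoid cells, where 1 cell of library 2 held 592 of 871 UMIs. Trp63, which encodes the p63 factor of stratified epithelia, stood at 4.93% (exact Poisson 95% interval 0.125 to 27.5%) and 47.5% (32.7 to 66.8%) in Langerhans-like cells, from 1 and 33 UMIs. In lymphoid cells, with 16 and 2 UMIs, the interval was 28.6 to 81.2% in library 1 and 1.58 to 47.1% in library 2. The intervals of the 2 classes overlapped in library 2. Chil4 stood at 3.71% and 40.4% in Langerhans-like cells, of which the library 2 value fell to 5.71% without the 1 cell named above, and at 7.78% and 5.15% in lymphoid cells. Epcam, which Langerhans cells express themselves, stood at 984% and 775% in them and 289% and 171% in lymphoid cells. The source of the keratinocyte transcripts in these barcodes was not tested.

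**Figure D5:**
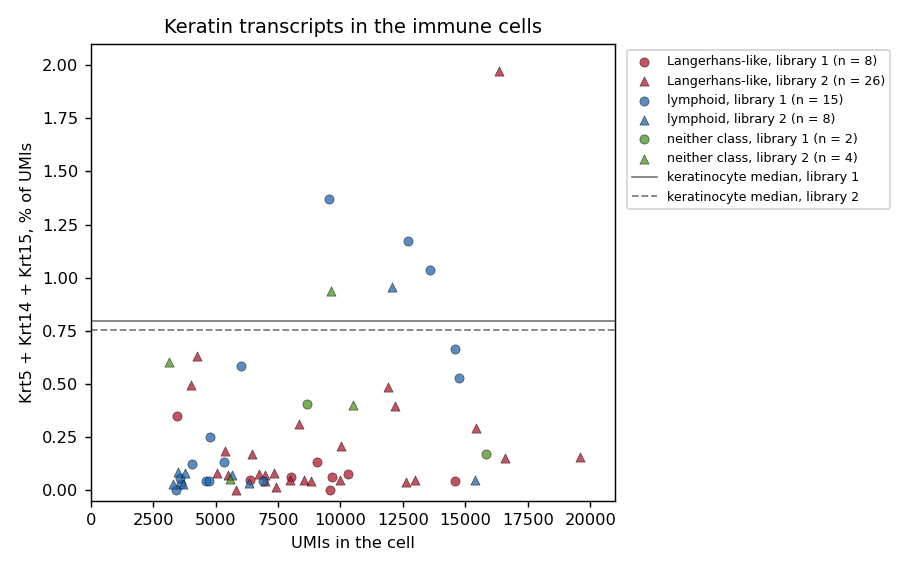
Share of UMIs from Krt5, Krt14 and Krt15 (percent, vertical axis) against the UMIs in the cell (horizontal axis) for each of the 63 immune cells, with the keratinocyte medians of 0.798% and 0.752% as lines. Most immune cells lie well under the lines, and the lymphoid cells near or above them have over 9000 UMIs, save 1 at 0.583%.

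Itgb4 encodes the protein that the sort selected, β4 integrin, which pairs with the α6 chain (Itga6) in hemidesmosomes that fasten basal cells to the basement membrane. Surface protein was not measured in these libraries. Itgb4 had 28.1 and 69.9 CPM in Langerhans-like cells, 53.5 and 0 CPM in lymphoid cells and 66.4 and 56.8 CPM in keratinocytes. It was detected by 19 UMIs in 9 Langerhans-like cells and 6 UMIs in 3 lymphoid cells. With every cell thinned to 3000 UMIs, Itgb4 was found in 1 of 8 and 4 of 26 Langerhans-like cells and in 1 of 15 and 0 of 8 lymphoid cells, against 21.5% and 18.1% of keratinocytes. Over all immune cells the thinned share was 9.52% (exact binomial 95% interval 3.58 to 19.6%), and the unthinned share was 19.0%. Of the 19 UMIs in Langerhans-like cells, 15 lay in the 9 cells with the highest keratin shares, and all 6 in lymphoid cells lay in keratin-rich cells. As a percent of the keratinocyte level, Itgb4 stood at 98.1% (exact Poisson 95% interval 59.1 to 153%) in Langerhans-like cells and 58.7% (exact Poisson 95% interval 21.5 to 128%) in lymphoid cells. These sum both libraries, which gave 42.4% and 123% in Langerhans-like cells and 80.5% and 0% in lymphoid cells. Both summed intervals include the keratinocyte level. They treat UMIs as independent, although most of these lay in keratin-rich cells, so they do not settle whether the Itgb4 level differed. By library, the thinned share of immune cells was 8% (2 of 25) in library 1 and 10.5% (4 of 38) in library 2. Keratinocytes had 21.5% and 18.1% in the same order. The interval of 3.58 to 19.6% pools both libraries and all immune classes, so it cannot settle whether the share differed within a library. Itga6 stood at 16.9% (exact Poisson 95% interval 2.05 to 61.0%) and 60.2% (37.7 to 91.1%) in libraries 1 and 2 of Langerhans-like cells. In lymphoid cells it stood at 64.2% and 24.7%.

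The 6 immune barcodes in neither class were the least certain. They held 1 to 6 Cd52 UMIs each and no Ptprc UMI. Of them, 3 held Cd74 (96, 30 and 26 UMIs) together with H2-Ab1 (25, 8 and 17 UMIs), and all 6 held Krt4, at 14 to 305 UMIs. At 2 Cd52 UMIs per 10000 in place of 3, the barcodes in neither class numbered 26, the Langerhans-like cells again 34 and the lymphoid cells 26.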

How the data were processed

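Single-cell RNA libraries (10x Chromium) were read as the authors deposited them, as UMI counts per gene and cell barcode; per the submitters' processing notes, Cell Ranger and the mouse build mm10 were used (release of Cell Ranger not given in the sources used here). The lowest barcode held 3149 UMIs, so barcodes had been filtered before deposit. The members and the gene lists were chosen with earlier results of these data known. A barcode was kept if 500 genes or more were detected and mitochondrial UMIs made up no more than 10%, and classes were set by the UMIs per 10000 of Cd52, Cd74, Nkg7 and Cd7. Doublets were not called here, and none were removed. UMIs were summed per class and library and scaled to 1000000 (CPM). Against keratinocytes, a gene was measured at 10 UMIs or more seen or expected in each library. Between groups of immune cells, it was measured at 10 UMIs or more seen in either group in each library. Genes were called at a 4-fold difference of 1 direction in both libraries, with a count of 0 set to a floor of 3 UMIs. Of genes past that rule, the text names those with the largest smaller ratio of the 2 libraries (12 up and 8 down against keratinocytes, 8 each way between immune classes), members of the gene lists, and genes stated to be chosen after their values were seen. The 2 libraries are technical, so there is 1 independent sample and no p-value. The calling was tested on simulated counts. Intervals are exact Poisson or binomial at 95% and cover counting error only. Of 389 listed genes, 376 were matched in the files and 13 were not analysed here. Coordinates are from GENCODE M21 on GRCm38, and promoters from RefSeq on GRCm38.p6. To compare shares of cells across depths, cells were thinned to 3000 UMIs. Other thresholds, filters and scalings were tried as alternatives, and leaving out the C1q-holding Langerhans-like cells or the lymphoid cells without Tyrobp was added after seeing the data. Scripts ran in Python 3.11.15 with pandas 2.3.3 and numpy 2.4.6, intervals came from scipy 1.17.1 and plots from matplotlib 3.10.9.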

Additional observations from a re-analysis of the deposited data

Results flagged for a closer look

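Among the barcodes left out for mitochondrial UMIs above 10%, 5 of 513 in library 2 held at least 3 Cd52 UMIs per 10000, which is a signal in data that the comparisons did not use. They had 10.4 to 15.6% mitochondrial UMIs, 11 to 40 Nkg7 UMIs each and no Cd74 UMI. In library 1, 0 of 308 such barcodes held as much Cd52, which allows a share of up to 0.974%.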

How the results depend on the processing

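The libraries are technical and hold few immune cells, so no value here carries an error between mice, and classes of 8 cells in 1 library bound what a summed level can show. No paired analysis was possible because the cell classes compared come from the same 2 libraries of 1 suspension and no result comes from a test. No named gene's ratio changed sign where it was measured. Over all alternatives the 54 named calls, on 47 genes, were kept 814 times, fell under the fold line 13 times (Rdh12, Fgfbp1, H19, 2610528A11Rik, Sbsn and Sept1) and were no longer measured 53 times. Of the last, 21 came with thinning to 3000 UMIs, 12 with a minimum of 20 UMIs and 8 without the C1q-holding cells. Another 7 came at a mitochondrial limit of 5%, 4 without keratin-bearing cells and 1 with no mitochondrial limit. Part of the 814 was fixed in advance. A call at 4-fold in both libraries had to be kept at 2-fold, with at least 5 UMIs or with no filter on low counts. The same held with either library left out, and each of these alternatives kept all 54 calls. A higher minimum of detected genes left the immune cells at 63. The 814 therefore includes alternatives that could not fail and does not measure how stable the calls were. The immune cells numbered 86 at 2 Cd52 UMIs per 10000 and 42 at a mitochondrial limit of 5%, where the Langerhans-like cells numbered 21. The barcodes in neither class numbered 26 at 2 Cd52 UMIs per 10000 and 2 at 5. Counts of called genes moved with the fold and with the filter on low counts. At 2-fold, 182 genes were lower in Langerhans-like cells and 41 lower in lymphoid cells than in keratinocytes, and 133 were higher and 145 lower in Langerhans-like than in lymphoid cells. At 8-fold the same counts were 7, 2, 24 and 18. With at least 5 UMIs, 318 genes were higher in Langerhans-like cells, and 154 higher and 10 lower in lymphoid cells, than in keratinocytes. With at least 20 UMIs, 84 were higher and 38 lower in Langerhans-like cells, 42 were higher in lymphoid cells, and 20 were lower in Langerhans-like than in lymphoid cells. With no filter on low counts, 756 were higher in Langerhans-like cells, 525 higher and 15 lower in lymphoid cells, and 62 higher and 67 lower in Langerhans-like than in lymphoid cells. With cells thinned to 3000 UMIs, 64 were higher and 25 lower in Langerhans-like cells, 50 were higher in lymphoid cells, and 22 were higher and 20 lower in Langerhans-like than in lymphoid cells, and the keratin share of immune cells was 0.271%. Thinning leaves fewer UMIs, so fewer genes are measured. Genes lower in lymphoid cells numbered 10 with median-of-ratios scaling, which lowered log2 ratios to keratinocytes (changes of -0.32 and -0.18), and 14 without keratin-bearing immune cells; the cause was not tested. Where a call needs 1 library only, 413 genes were higher and 196 lower in Langerhans-like cells than in keratinocytes without library 1, and 204 and 169 without library 2. For lymphoid cells, 97 were higher and 13 lower without library 1, and 183 and 44 without library 2. Between Langerhans-like and lymphoid cells, 120 were higher and 67 lower without library 1, and 129 and 277 without library 2. Higher genes outnumbered lower ones between these classes at 4-fold, but not at 2-fold, with no filter on low counts or without library 2. The keratin share of immune cells was 0.304 to 0.375% with 1 library left out, and the share of immune cells with an Itgb4 UMI was 8 to 10.5%.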

Other observations

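Genes of signals known to pass between keratinocytes and immune cells were read in all 3 classes. Csf1r, the receptor for IL-34 and CSF1, had 436 and 255 CPM in Langerhans-like cells, 0 and 0 CPM in lymphoid cells and 0.0453 and 0.0561 CPM in keratinocytes. Il34, the epithelial ligand of that receptor, had 0 UMIs in Langerhans-like and lymphoid cells and 2.04 and 2.39 CPM in keratinocytes. Tgfb1, a cytokine that Langerhans cells need, had 225 and 156 CPM in Langerhans-like cells, 98.1 and 93.0 CPM in lymphoid cells and 18.5 and 17.0 CPM in keratinocytes. Cxcl16, the ligand of CXCR6, had 436 and 403 CPM in Langerhans-like cells, 0 in lymphoid cells and 10.1 and 10.5 CPM in keratinocytes, and its receptor gene Cxcr6 was found in 5 of 23 lymphoid cells and in 0 of 34 Langerhans-like cells. Crlf2, a chain of the receptor for the epithelial cytokine TSLP, had 211 and 139.8 CPM in Langerhans-like cells and 6.11 and 6.15 CPM in keratinocytes. Xcl1 was found in lymphoid cells, whereas its receptor gene Xcr1 had 5 UMIs in Langerhans-like cells, 4 of them in 1 cell. Il2rb, a receptor chain for IL-15, had 42 UMIs in lymphoid cells and 0 in Langerhans-like cells. Ifng, the interferon-γ gene, had 13 UMIs in lymphoid cells.

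Proliferation genes came from a few cells of each immune class. Top2a had 60 UMIs in Langerhans-like cells, 55 of them in 4 cells, and 56 UMIs in lymphoid cells, 52 of them in 5 cells. Many of these cells were rich in basal keratin. The lymphoid cells with 14, 11, 15 and 5 Top2a UMIs had shares of 1.04, 0.665, 0.529 and 0.954%, and that with 7 had 0.0436%. The Langerhans-like cell with 25 had 1.97%, and those with 13, 10 and 7 had 0.0396, 0.158 and 0.151%. Whether the Top2a UMIs came from the immune cells themselves was not tested. None of 5 measured cell cycle genes in Langerhans-like cells, nor of 3 in lymphoid cells, was called against keratinocytes. Jun and Btg2, genes of the immediate early response that tissue dissociation can also raise, were higher in Langerhans-like cells than in keratinocytes among 6 measured of 13, at 633 and 275 CPM for Jun in Langerhans-like cells and 26.3 and 29.5 CPM in keratinocytes. At 3000 UMIs per cell the median number of genes was 1157.5 and 1226.5 in Langerhans-like cells, 1357 and 1326.5 in lymphoid cells, and 1300 and 1321 in keratinocytes.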
